A study of Homo sapiens with 6 samples.

Results

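The expression of 40 antioxidant, thioredoxin and glutathione genes was followed in K562 cells after knockdown of the long noncoding RNA lncRNA-IUR1. K562 is a human chronic myeloid leukemia line that carries the Bcr-Abl fusion. The sh-luc cells stably expressed a control shRNA against luciferase, and the sh-IUR1 cells an shRNA against lncRNA-IUR1, named lncRNA-up91 in the sample labels. Each group had 3 libraries of total RNA, taken according to the methods from independent groups of cells, and here called unnumbered, r1 and r2. The comparison rests on 1 cell line and 1 shRNA, and the level of lncRNA-IUR1 itself was not analysed here. The members were named by symbol as regulators and enzymes of antioxidant defence, thioredoxin and glutathione, and their Entrez identifiers were looked up in RefSeq. Of the 40 genes, 38 were in the deposited table of 12486 genes, and all 38 passed the filter of a mean of at least 0.1 FPKM that left 12276 genes for the test. HMOX1 (heme oxygenase) and GPX7 (a peroxidase of the endoplasmic reticulum) were not analysed here. FPKM is the number of fragments scaled to the length of the transcript and to the fragments of the library, so levels of different genes can be compared.

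Cells remove hydrogen peroxide mainly through peroxiredoxins, glutathione peroxidases and catalase, while superoxide dismutases supply that peroxide from superoxide. Peroxiredoxins are reduced by thioredoxin and thioredoxin reductase, and glutathione peroxidases by glutathione and glutathione reductase, both at the expense of NADPH. Many of these genes carry antioxidant response elements, bound by NRF2 (the product of NFE2L2) together with small MAF proteins. KEAP1 holds NRF2 at a low level by directing its degradation, and BACH1 competes for the same elements. In red cell precursors, the lineage that K562 resembles, peroxiredoxins and catalase are abundant.

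The antioxidant response element core, written TGACNNNGC, was searched on both strands of the RefSeq promoter windows (GRCh38.p14, 250 bases before to 50 after each start). A window was given for 30 of the 40 genes, with 46 windows in all, and 7 windows of 6 genes held the core. That is 15.2% of these windows, beside 13.3% of all 35116 windows. For each of the 6 genes 1 match is shown with 10 bases on each side, because NRF2, small MAF proteins and BACH1, encoded by members, bind this element. The capitals mark the core, and each line reads 5′ to 3′ on the strand that holds it.
GCLM: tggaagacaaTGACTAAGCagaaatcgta
KEAP1: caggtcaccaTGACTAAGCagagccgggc
TXNRD1: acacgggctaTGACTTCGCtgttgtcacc
GSTP1: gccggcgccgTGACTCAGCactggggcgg
ME1: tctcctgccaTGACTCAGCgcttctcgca
GSTO1: ggcggagggaTGACTGAGCatttataact
The GCLM line lies at chr1:93909446-93909474 on the plus strand, 34 bases before the start of this minus-strand gene. The KEAP1 line lies at chr19:10502784-10502812 on the plus strand, 31 bases before the start of the transcript that this window belongs to, and a further match lies 54 bases before it. The TXNRD1 line lies at chr12:104215670-104215698 on the plus strand, 99 bases before the first of its starts. The GSTP1 line lies at chr11:67583736-67583764 on the plus strand, 66 bases before the start. The ME1 line lies at chr6:83431170-83431198 on the minus strand, 137 bases before the start. The GSTO1 line lies at chr10:104254656-104254684 on the plus strand, 226 bases before the start of an internal transcript, inside the span of the gene. GCLM and KEAP1 share the same 9 letters in the core, and so do GSTP1 and ME1, whose core also contains the AP-1 letters TGANTCA, found in 6.52% of these windows and 7.71% of all. The ATF4 letters TGATGNAA were in 0 of the 46 windows, beside 3.62% of all windows. A match is only a description of the letters in the window.

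The cells showed the K562 identity given in the labels. All 12 erythroid and K562 markers fixed for this check were listed, with mean levels from 9.67 FPKM (EPOR) to 2915 FPKM (HBG2), and GATA1 was between 182.3 and 200.4 FPKM. Of 14 markers of T cells, B cells, monocytes, granulocytes and fibroblasts, 6 were listed. LYZ was at 107.0 to 118.7 FPKM, CD3D at 3.51 to 4.96 FPKM, and CD3E, CD79A and COL1A1 at no more than 0.37 FPKM in any library. In the unnumbered sh-luc library 21 genes of the integrated stress response had a median log2 deviation of -0.66 from their mean over the 6 libraries, while the other libraries were between -0.089 and 0.402. Fold changes of single genes that moved by over 1.5 times without this library are therefore given without it as well.

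Many of these antioxidant genes were abundant in both groups. Of the 38 genes, 14 (36.8%) had a mean of at least 100 FPKM, compared with 7.27% of all genes tested. Their median was 65.5 FPKM, and that of all genes tested 10.6 FPKM. At least 100 FPKM was reached by 28.6% of the further NRF2 targets tested, 5.26% of other glutathione genes and 10.5% of thiol repair genes. The medians of these lists were 23.2, 13.5 and 21.4 FPKM. For the integrated stress genes the share was 38.1% and the median 85.2 FPKM. Together the 38 genes held between 0.925% and 0.970% of the listed FPKM of a library. The most abundant were GSTP1, PRDX1, PRDX2, SOD1 and PRDX6, and the lowest listed values were those of GPX1.

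**Figure D1:**
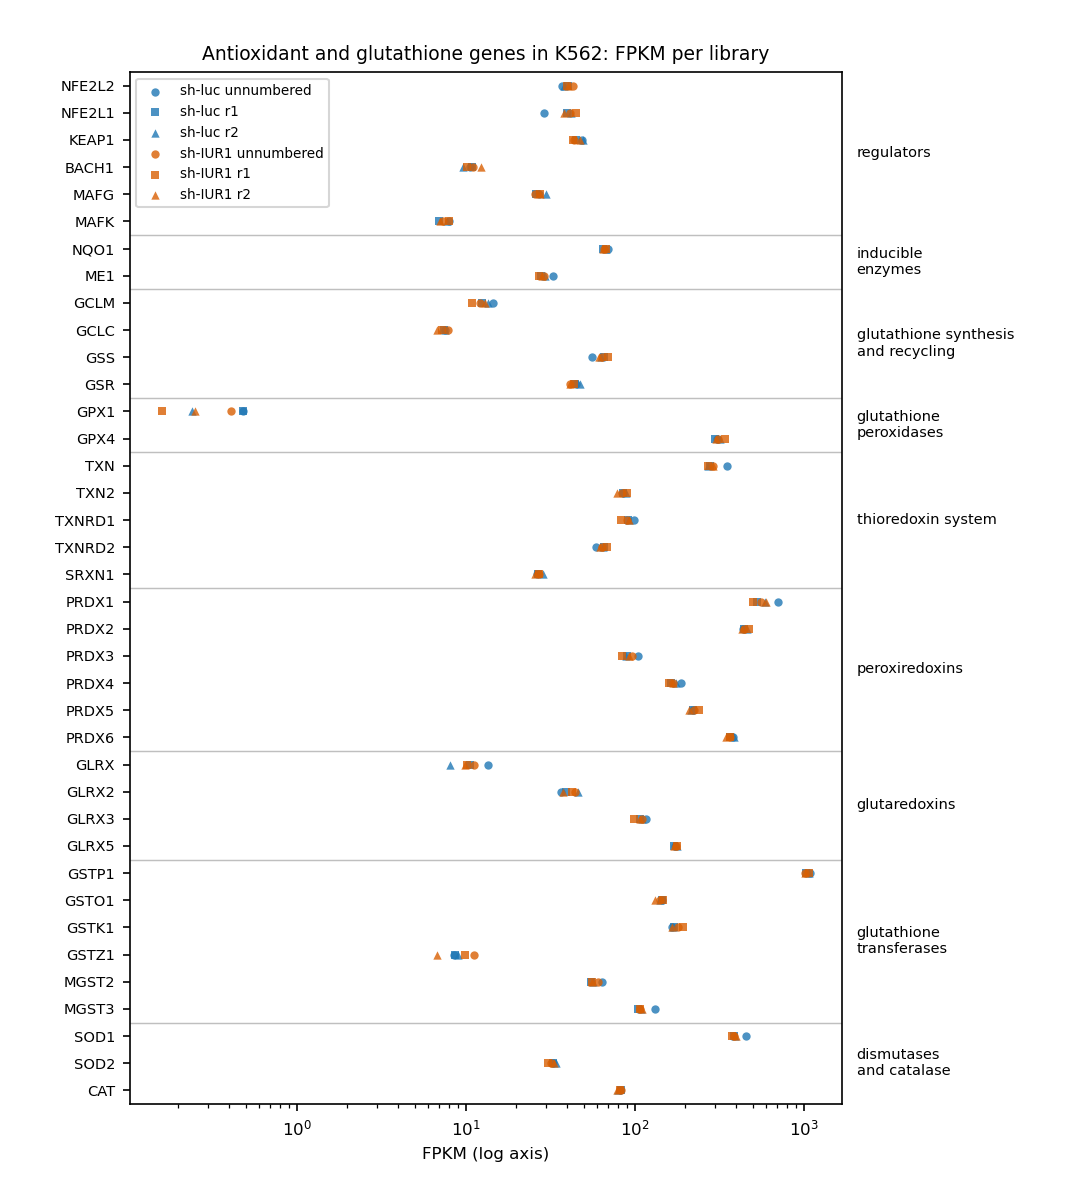
FPKM of the 38 genes (log axis) by role. Each point is a library, blue for sh-luc and orange for sh-IUR1, with circles for the unnumbered, squares for the r1 and triangles for the r2 libraries. GSTP1 lies between 1023 and 1092 FPKM and GPX1 below 0.5 FPKM in all 6 libraries.

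Knockdown of lncRNA-IUR1 moved 0 of the 38 genes past an adjusted p of 0.05 in limma, and this background was 0% of the 12276 genes tested. The unadjusted p of limma was under 0.05 for 0 of the 38 as well, beside 2.65% of all genes (1.65% higher and 0.994% lower in sh-IUR1). Adjusted p-values of the members were between 0.930 and 0.997. For 2 members (5.26%) the groups did not overlap, GSR and PRDX6, both lower in sh-IUR1. The background for this was 7.07% of all genes in either direction, 4.04% for higher and 3.03% for lower in sh-IUR1. The median log2 fold change was -0.033 over the members and 0.019 over all genes tested, and without the unnumbered sh-luc library these were -0.016 and 0.0047. It was below 0 for 26 of the 38 genes (68.4%), compared with 42% of all genes, and without the unnumbered sh-luc library for 23 of the 38 (60.5%), compared with 47.3%. For all 38 genes the 95% confidence interval of the log2 fold change lay within 0.5 on either side of 0. That held for 95.6% of all genes tested. The outermost bounds of the members were -0.36 for GPX1 and 0.46 for NFE2L1. These intervals are for FPKM + 1, which understates changes of low genes such as GPX1. With a pseudocount of 0.1 the log2 fold change of GPX1 was -0.43, and its ratio of group means was 0.683. Among the members above 1 FPKM the ratio of the group means was between 0.895 (GCLM) and 1.12 (NFE2L1).

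**Figure D2:**
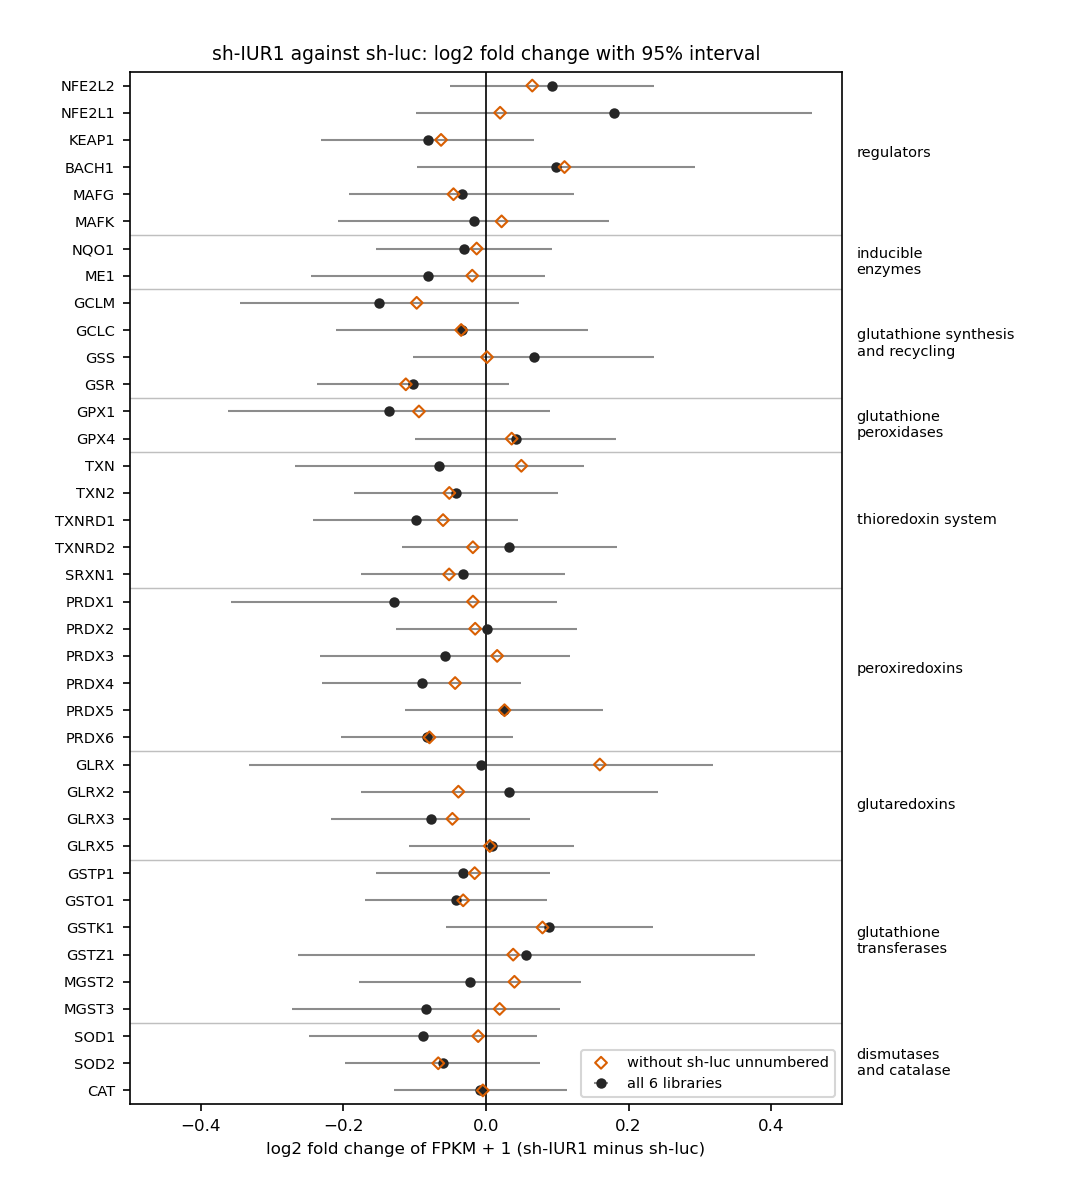
Log2 fold change of FPKM + 1 (sh-IUR1 minus sh-luc) of the 38 genes by role. Black points with bars are limma estimates with their 95% confidence intervals over all 6 libraries, and open diamonds are the estimates without the unnumbered sh-luc library. Every interval includes 0, and the diamond of NFE2L1 lies at 0.020 where its point lies at 0.18.

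Among the regulators, KEAP1, NFE2L2 and NFE2L1 were expressed at similar levels, with means of 46.3, 39.9 and 39.3 FPKM and overlapping values. MAFG, which encodes a small MAF partner of NRF2, followed at 25.9 to 29.8 FPKM. The lowest were BACH1, at 9.72 to 12.4 FPKM, and MAFK, another small MAF, at 6.93 to 8.03 FPKM. The median log2 fold change of these 6 genes was 0.037 (0.021 without the unnumbered sh-luc library), with 3 above 0 and 3 below.

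KEAP1 (gene identifier 9817, chromosome 19 from 10486125 to 10503356) was at 48.9, 44.8 and 49.3 FPKM in the sh-luc libraries (unnumbered, r1, r2) and at 43.9, 43.2 and 47.8 FPKM in the sh-IUR1 libraries. The highest sh-IUR1 library was inside the sh-luc range. The means were 47.6 ± 2.48 and 44.96 ± 2.48 FPKM (SD, n = 3 in each group), with a log2 fold change of -0.082 (standard error 0.067).

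NFE2L1 (gene identifier 4779, chromosome 17 from 48048359 to 48061545) encodes NRF1, a relative of NRF2 that is held in the endoplasmic reticulum and drives proteasome genes. It was at 29.1, 40.04 and 41.9 FPKM in sh-luc and at 41.4, 45.2 and 38.2 FPKM in sh-IUR1 libraries. The unnumbered sh-luc library stood 29.7% below the mean of the other 5, while the remaining values of the groups overlapped. The means were 37.0 ± 6.91 and 41.6 ± 3.49 FPKM (SD, n = 3 in each group). The log2 fold change was 0.18 (standard error 0.12), the highest of the 38 genes, and 0.020 without the unnumbered sh-luc library.

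NQO1 and ME1 are classical NRF2-induced enzymes, the first a quinone reductase and the second the cytosolic malic enzyme, a source of NADPH. NQO1 (gene identifier 1728, chromosome 16 from 69709401 to 69726560) was at 69.2, 65.4 and 67.9 FPKM in sh-luc and at 65.5, 67.5 and 65.2 FPKM in sh-IUR1 libraries. All 6 values lay within 0.085 on the log2 scale, and the groups overlapped. ME1 (gene identifier 4199, chromosome 6 from 83210402 to 83431051) was at 32.7, 27.9 and 29.4 FPKM in sh-luc and at 29.3, 27.2 and 28.3 FPKM in sh-IUR1 libraries. Its log2 fold change was -0.081 (standard error 0.073), and -0.019 without the unnumbered sh-luc library, which held the highest value.

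Glutathione is built by the ligase GCLC with its modifier subunit GCLM and then by the synthetase GSS, and its oxidised form is reduced again by GSR. Per length, GSS was highest with a mean of 63.3 FPKM, followed by GSR (44.0), GCLM (12.8) and GCLC (7.44), and each of these steps separated the genes in every library. The rate-limiting ligase thus had the lowest transcript levels of the pathway, at 6.82 to 7.92 FPKM. The median log2 fold change of the 4 genes was -0.068, with 3 below 0.

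GCLM (gene identifier 2730, chromosome 1 from 93885199 to 93909430) was at 14.6, 12.5 and 13.5 FPKM in sh-luc and at 12.2, 10.99 and 13.1 FPKM in sh-IUR1 libraries. The r2 library of sh-IUR1 was inside the sh-luc range. The means were 13.5 ± 1.06 and 12.1 ± 1.06 FPKM (SD, n = 3 in each group), and the log2 fold change of -0.15 (standard error 0.088) had the smallest unadjusted p-value of all members, 0.119, with an adjusted p of 0.930 from limma. It was -0.097 without the unnumbered sh-luc library, which held the highest value, and -0.087 without sh-IUR1 r1, which held the lowest. GSR (gene identifier 2936, chromosome 8 from 30678066 to 30727846) was at 44.9, 44.4 and 47.4 FPKM in sh-luc and at 41.7, 44.1 and 41.4 FPKM in sh-IUR1 libraries. The groups did not overlap, but the gap between sh-luc r1 and sh-IUR1 r1 was small beside the spread within each group. The means were 45.6 ± 1.60 and 42.4 ± 1.46 FPKM (SD, n = 3 in each group), a ratio of 0.930, with a log2 fold change of -0.10 (standard error 0.060). The unadjusted p of GSR from limma was also 0.119 when rounded, and its log2 fold change was -0.11 without the unnumbered sh-luc library. GSS (gene identifier 2937, chromosome 20 from 34928432 to 34956027) was at 56.3, 66.1 and 63.3 FPKM in sh-luc and at 63.9, 69.3 and 61.2 FPKM in sh-IUR1 libraries, and its log2 fold change of 0.067 (standard error 0.076) was 0.0014 without the unnumbered sh-luc library.

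The glutathione peroxidases were listed at very different values. GPX4 (gene identifier 2879, chromosome 19 from 1103994 to 1106779), the enzyme that reduces lipid peroxides and protects from ferroptosis, was at 306.6, 300.1 and 320.6 FPKM in sh-luc and at 310.8, 343.1 and 301.7 FPKM in sh-IUR1 libraries. Its means were 309.1 ± 10.5 and 318.6 ± 21.7 FPKM (SD, n = 3 in each group), and the groups overlapped. GPX1 (gene identifier 2876, chromosome 3 from 49357176 to 49358353), the cytosolic enzyme, was listed at 0.48, 0.48 and 0.24 FPKM in sh-luc and at 0.41, 0.16 and 0.25 FPKM in sh-IUR1 libraries. GPX1 was the only member under 1 FPKM, and the listed mean of GPX4 was 932-fold higher. RefSeq names 2 pseudogenes of GPX1, and how shared fragments were assigned is not given in the sources used here, so its level, and with it this ratio, is uncertain. The GPX1 values lay within 0.007 FPKM of 2 to 6 times a step of 0.081 FPKM, which was chosen as the best of those tried after the values were seen. If that step is a single fragment, the log2 fold change of -0.14 (standard error 0.10) rests on a handful of fragments per library.

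In the thioredoxin system, TXN (cytosolic thioredoxin) had 3.21-fold higher mean FPKM than its reductase TXNRD1. The mitochondrial pair TXN2 and TXNRD2 had means of 85.8 and 64.3 FPKM. SRXN1 (sulfiredoxin), which repairs overoxidised peroxiredoxins, was at 25.7 to 28.7 FPKM. The median log2 fold change of the 5 genes was -0.042, and 4 of them were below 0.

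TXN (gene identifier 7295, chromosome 9 from 110243810 to 110256507) was at 351.3, 278.5 and 273.8 FPKM in sh-luc and at 292.2, 273.6 and 292.2 FPKM in sh-IUR1 libraries. The unnumbered sh-luc library was 24.5% above the mean of the other 5, which overlapped between the groups. The log2 fold change was -0.066 (standard error 0.091), and 0.050 without that library, so its direction depended on it. TXNRD1 (gene identifier 7296, chromosome 12 from 104215779 to 104350307) was at 99.7, 91.1 and 92.9 FPKM in sh-luc and at 90.1, 82.6 and 92.2 FPKM in sh-IUR1 libraries. Its means were 94.6 ± 4.51 and 88.3 ± 5.04 FPKM (SD, n = 3 in each group), with a log2 fold change of -0.098 (standard error 0.064) that was -0.060 without the unnumbered sh-luc library. Only sh-IUR1 r2 was inside the sh-luc range.

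The 6 peroxiredoxins summed to between 1825 and 2039 FPKM per library. Their order was PRDX1, PRDX2, PRDX6, PRDX5, PRDX4 and PRDX3, and each was above the next in every one of the 6 libraries. PRDX1 and PRDX2 are cytosolic, PRDX3 is mitochondrial, PRDX4 sits in the endoplasmic reticulum, PRDX5 is found in several compartments, and PRDX6 is the member with a single catalytic cysteine. The cytosolic enzymes were thus the most abundant and the mitochondrial PRDX3 the least, at 84.1 to 104.8 FPKM.

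PRDX1 (gene identifier 5052, chromosome 1 from 45511051 to 45522890) was at 705.0, 533.1 and 587.6 FPKM in sh-luc and at 558.4, 501.8 and 602.3 FPKM in sh-IUR1 libraries. The unnumbered sh-luc library was the highest, 26.6% above the mean of the other 5. The means were 608.6 ± 87.8 and 554.2 ± 50.4 FPKM (SD, n = 3 in each group), with a log2 fold change of -0.13 (standard error 0.10) that was -0.018 without that library. PRDX6 (gene identifier 9588, chromosome 1 from 173477335 to 173488815) was at 381.9, 368.7 and 389.8 FPKM in sh-luc and at 364.9, 366.3 and 345.4 FPKM in sh-IUR1 libraries. The groups did not overlap, and the nearest values, sh-luc r1 and sh-IUR1 r1, were closer together than the SD of either group. The means were 380.1 ± 10.7 and 358.9 ± 11.7 FPKM (SD, n = 3 in each group), a ratio of 0.944, and the log2 fold change was -0.083 with an adjusted p of 0.930 from limma and -0.079 without the unnumbered sh-luc library. PRDX2, an abundant protein of red cells, had means of 449.2 ± 12.3 and 449.6 ± 20.8 FPKM (SD, n = 3 in each group), and the 95% interval of its log2 fold change was -0.13 to 0.13.

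Some glutaredoxins reduce glutathionylated proteins, and some, GLRX3 and GLRX5 among them, carry iron-sulfur clusters. GLRX5, the mitochondrial iron-sulfur protein needed for heme synthesis in red cell precursors, was the highest. GLRX5 (gene identifier 51218, chromosome 14 from 95535050 to 95544714) was at 173.6, 172.1 and 177.1 FPKM in sh-luc and at 176.4, 179.3 and 170.2 FPKM in sh-IUR1 libraries. It was among the steadiest members, with all 6 libraries within 0.075 on the log2 scale and a log2 fold change of 0.0079 (standard error 0.052).

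GLRX3 (gene identifier 10539, chromosome 10 from 130136391 to 130180377) was at 116.3, 107.2 and 110.9 FPKM in sh-luc and at 110.7, 99.1 and 107.1 FPKM in sh-IUR1 libraries. The unnumbered sh-IUR1 library was inside the sh-luc range, and the log2 fold change was -0.078 (standard error 0.062). It was -0.047 without the unnumbered sh-luc library and -0.033 without sh-IUR1 r1. GLRX (cytosolic glutaredoxin) had the widest range of log2(FPKM + 1) of all members, 0.68, with GSTZ1 next at 0.65. That scale understates the spread of GPX1, listed at 0.16 to 0.48 FPKM. Both ends of GLRX were in the control group, 8.09 FPKM in sh-luc r2 and 13.5 FPKM in unnumbered sh-luc. The 3 sh-IUR1 values of GLRX lay between these, and its log2 fold change was -0.0070 with all libraries and 0.16 without the unnumbered sh-luc library.

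Glutathione transferases attach glutathione to reactive compounds. GSTP1 (gene identifier 2950, chromosome 11 from 67583812 to 67586653) was the most abundant of the 38 genes, at 1092, 1036 and 1074 FPKM in sh-luc and at 1026, 1081 and 1023 FPKM in sh-IUR1 libraries. Its groups overlapped, with a ratio of means of 0.978 and a 95% interval of the log2 fold change from -0.15 to 0.089. GSTK1 (gene identifier 373156, chromosome 7 from 143263441 to 143269115), a mitochondrial and peroxisomal transferase, followed at 167.2, 172.0 and 169.1 FPKM in sh-luc and at 181.3, 194.5 and 166.1 FPKM in sh-IUR1 libraries. Here sh-IUR1 r2 was the lowest of all 6 while the other sh-IUR1 libraries were the highest, and the log2 fold change was 0.089 (standard error 0.065). Without sh-IUR1 r2 it was 0.15, and limma gave an adjusted p of 0.729 (0.0484 before adjustment). GSTZ1, an enzyme of tyrosine breakdown, also had its lowest value in sh-IUR1 r2. It was at 8.50 to 9.04 FPKM in sh-luc and at 11.2, 9.92 and 6.79 FPKM in sh-IUR1 libraries, and without sh-IUR1 r2 its log2 fold change was 0.25 rather than 0.056, with an adjusted p of 0.729 from limma. GSTO1 was at 132.9 to 146.6 FPKM, and the microsomal MGST3 and MGST2 had means of 111.8 and 58.2 FPKM.

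The copper-zinc superoxide dismutase SOD1 was 4.91-fold above catalase (CAT) in mean FPKM, and CAT was 2.497-fold above the mitochondrial SOD2. SOD1 (gene identifier 6647, chromosome 21 from 31659693 to 31668931) was at 459.3, 388.8 and 392.3 FPKM in sh-luc and at 389.8, 375.0 and 398.3 FPKM in sh-IUR1 libraries. The unnumbered sh-luc library again lay above the rest, by 18.1% of the mean of the other 5, and the log2 fold change of -0.089 (standard error 0.072) was -0.011 without it. CAT was the least variable member, at 79.2 to 83.4 FPKM in all 6 libraries.

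The library that stood apart for the stress genes was more often the highest, and less often the lowest, for the members than for all genes tested. The unnumbered sh-luc library was the highest of the 6 for 15 of the 38 genes (39.5%), compared with 23.7% of all genes tested, and the lowest for 5 (13.2%), compared with 37.5%. The 15 genes were MAFK, NQO1, ME1, GCLM, TXN, TXNRD1, PRDX1, PRDX3, PRDX4, GLRX, GLRX3, GSTP1, MGST2, MGST3 and SOD1. The 5 genes at their lowest there were NFE2L2, NFE2L1, GSS, TXNRD2 and GLRX2. For 9 members (23.7%) the unnumbered sh-luc library was the highest and sh-IUR1 r1 the lowest, which held for 12.8% of all genes. Taken alone, sh-IUR1 r1 was the lowest for 12 members (31.6%, beside 22.2% of all genes) and the highest for 10 (26.3%, beside 25.8%). The integrated stress genes had their ends in unnumbered sh-luc and sh-IUR1 r1, in the opposite order. The median log2 deviation of the 21 stress genes was -0.66 in unnumbered sh-luc and 0.40 in sh-IUR1 r1. For the 38 members these medians were 0.036 and 0.0050, and their lowest was -0.043, in sh-IUR1 r2. The 12 K562 markers had medians of 0.17 in unnumbered sh-luc and -0.13 in sh-IUR1 r1. The part of the stress genes and of the erythroid markers in the members' differences was not tested.

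**Figure D3:**
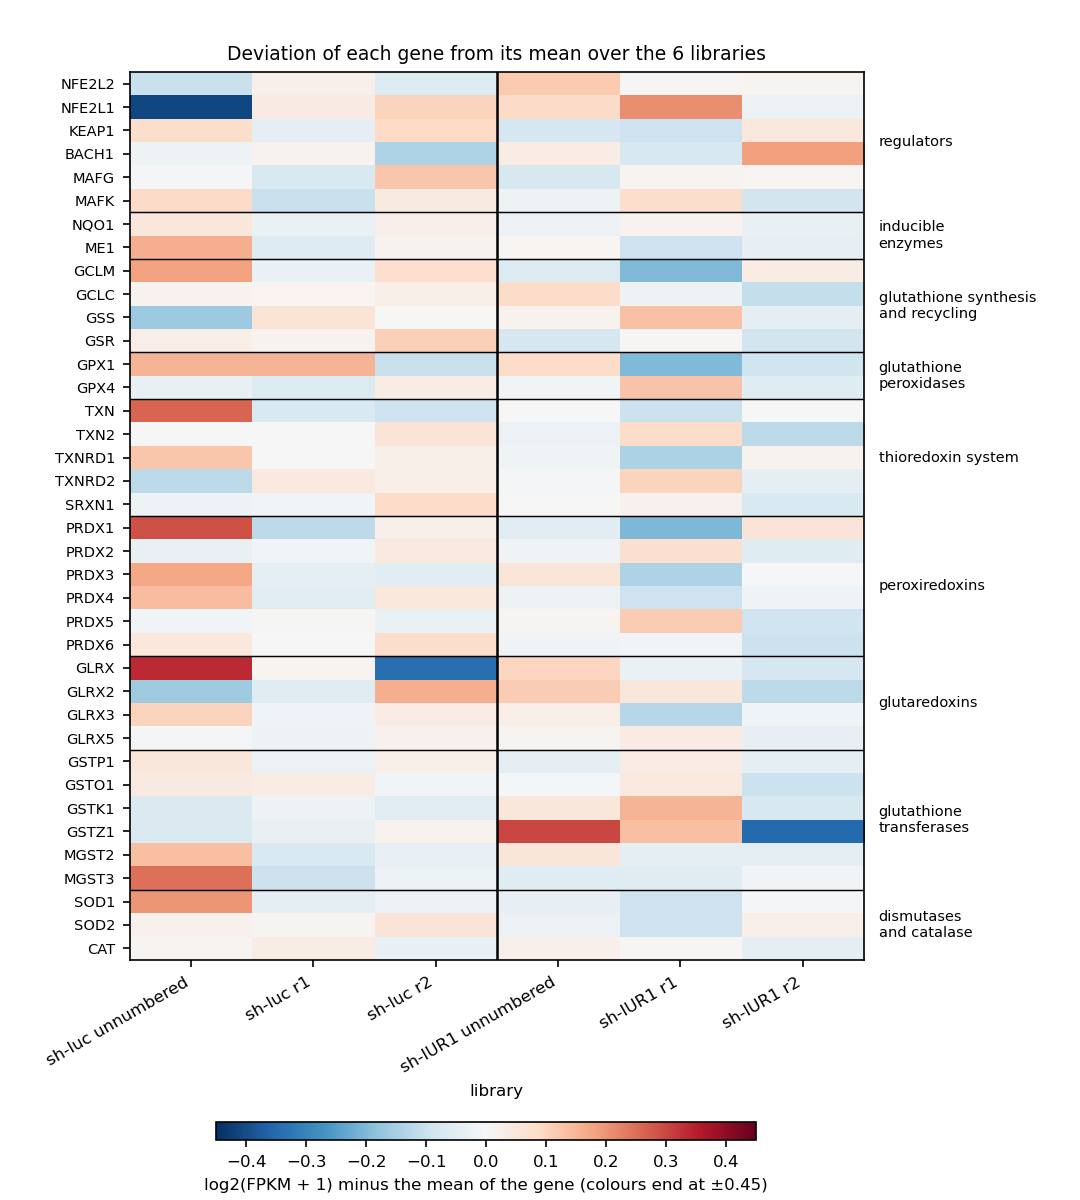
Deviation of log2(FPKM + 1) of each of the 38 genes (rows, by role) from its own mean over the 6 libraries (columns), red above and blue below the mean. The unnumbered sh-luc column holds both the highest deviation (GLRX) and the lowest (NFE2L1), and only the rows of GSR and PRDX6 separate the sh-luc columns from the sh-IUR1 columns.

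**Figure D4:**
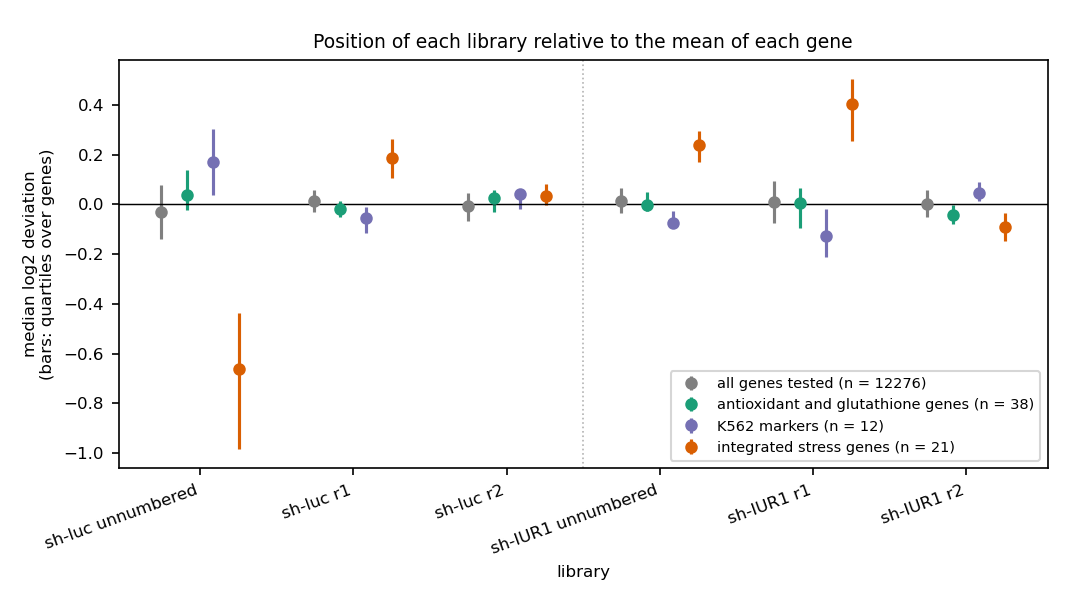
Median log2 deviation from the gene means in each library (points) with quartiles over genes (bars), for all 12276 genes tested, the 38 antioxidant and glutathione genes, the 12 K562 markers and the 21 integrated stress genes. The stress genes range from -0.66 to 0.40 over the libraries, while the medians of the antioxidant genes stay between -0.043 and 0.036.

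The authors' own clustering of the genes over the same 6 libraries placed 11 of the 38 members (28.9%) in cluster 3, which held 11.7% of all genes, 10 (26.3%) in cluster 8, with 10.8% of all genes, and 8 (21.1%) in cluster 4, with 10.5%. The mean z-score of cluster 3 was 1.645 in unnumbered sh-luc and -0.750 in sh-IUR1 r1, that of cluster 4 was 1.076 and -0.739, and that of cluster 8 was -0.265 and 1.184. Cluster 3 held TXN, TXNRD1, PRDX1, PRDX3 and SOD1 among others, and cluster 8 held GPX4, PRDX2, PRDX5 and GLRX5. The clusters were made from these FPKM values and add no independent measurement.

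Other genes of the pathway were examined as lists. Of 32 further NRF2 targets 28 were tested, and for 0 of them limma gave an adjusted or unadjusted p under 0.05. Of all genes, 2.65% were under 0.05 before adjustment and 0% after it. With 14 above and 14 below 0, the median log2 fold change of the 28 targets was -0.00040 (0.00073 without the unnumbered sh-luc library). The smallest p-value among those higher in sh-IUR1 was that of SLC7A11, which imports cystine for glutathione synthesis, at 7.02, 15.4 and 12.3 FPKM in sh-luc and at 16.7, 15.5 and 13.8 FPKM in sh-IUR1 libraries. Its low unnumbered sh-luc value moved with those of the stress genes, and the log2 fold change of 0.44 (standard error 0.21) was 0.15 without that library. Among the lower genes it was that of AKR1C1, an aldo-keto reductase. AKR1C1 was at 103.4, 89.3 and 88.5 FPKM in sh-luc and at 83.4, 79.3 and 90.1 FPKM in sh-IUR1 libraries. Its log2 fold change was -0.15 (standard error 0.077), and -0.079 without the unnumbered sh-luc library. Of the 28 genes, 1 did not overlap in each direction, ABCC1 (higher in sh-IUR1) and UGDH (lower), beside 4.04% and 3.03% of all genes.

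Of 24 other glutathione genes 19 were tested, again with 0 under 0.05 in limma before or after adjustment (2.65% and 0% of all genes). Of these 19 genes, 11 were above 0. CHAC1, which degrades glutathione, was at 31.7, 97.6 and 78.6 FPKM in sh-luc and at 91.6, 94.7 and 81.2 FPKM in sh-IUR1 libraries. The single low library gave a log2 fold change of 0.50 (standard error 0.32), and 0.022 without it. GSTA4, a transferase for lipid aldehydes, had the smallest p-value among the lower genes, with a log2 fold change of -0.13 (standard error 0.096).

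Of 21 thiol repair and thioredoxin-fold genes 19 were tested, and 8 were above 0. In limma 0 of the 19 were under 0.05 before or after adjustment, beside 2.65% and 0% of all genes. TXNIP, the inhibitor that binds thioredoxin, was at 137.6, 299.5 and 266.2 FPKM in sh-luc and at 314.4, 313.6 and 269.9 FPKM in sh-IUR1 libraries. It was thus low where TXN was high, in the unnumbered sh-luc library, and its log2 fold change of 0.42 (standard error 0.23) was 0.080 without that library. SELENOW, a small selenoprotein that binds glutathione, was at 45.9, 40.2 and 41.2 FPKM in sh-luc and at 39.8, 39.6 and 36.1 FPKM in sh-IUR1 libraries. Its groups did not overlap, which held for 1 of the 19 genes, beside 7.07% of all genes in either direction. The log2 fold change of SELENOW was -0.14 (standard error 0.072) with an adjusted p of 0.930 from limma, and -0.079 without the unnumbered sh-luc library.

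The 21 stress genes tested, of 22, were all above 0 with a median log2 fold change of 0.31, which was 0.055 without the unnumbered sh-luc library. In limma 0 of the 21 were under 0.05 before or after adjustment, beside 2.65% and 0% of all genes. CTH, which makes the cysteine used for glutathione, had the smallest p-value among them, at 15.9, 39.9 and 34.1 FPKM in sh-luc and at 45.2, 51.5 and 30.7 FPKM in sh-IUR1 libraries. Its groups overlapped, and its log2 fold change was 0.56 (standard error 0.29), and 0.17 without the unnumbered sh-luc library.

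For 18 of the 38 members the RefSeq span overlaps that of another gene, for example MMACHC for PRDX1 and MYH7B for GSS. For 15 members RefSeq names pseudogenes by the same symbol, with 7 for TXN, 4 each for PRDX2 and PRDX3, and 3 each for GLRX, GLRX5 and SOD1. How the authors assigned fragments shared between such genes is not given in the sources used here, so these levels are uncertain to that extent.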

How the data were processed

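Total RNA of 3 sh-luc and 3 sh-IUR1 libraries of K562 cells was sequenced on an Illumina platform. According to the methods and the submitters' notes, the authors trimmed and masked the reads, mapped them to hg38 and calculated expression with SAMtools 0.1.19. The aligner, the annotation and the number of fragments per library are not given in the sources used here. The deposited values are FPKM by their column names, while the methods speak of RPKM. The authors also deposited a score (the z-score of each gene over the 6 libraries), a cluster number and a membership fraction. The cluster numbers and scores are only described, and the fractions were not used. In the table of 12486 genes the lowest SD over the libraries was 0.0501 FPKM, and the listed FPKM summed to between 579820 and 606240 per library. RefSeq (GRCh38.p14) gave a symbol for 12363 genes.

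Values were transformed to log2(FPKM + 1), which understates changes of low genes, and limma 3.58.1 (R 4.3.3, trended eBayes, group as the single factor) was run on 12276 genes whose mean reached 0.1 FPKM. Adjustment followed Benjamini and Hochberg over all genes tested, and intervals are at 95%. The 6 libraries are independent cultures as far as the methods state. With 3 libraries per group an exact permutation test cannot give a p-value under 0.1, so none is given. Since RNA was pooled from many cells, fewer expressing cells and less RNA per cell cannot be told apart.

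The members and lists were chosen with earlier results of these data known. Values in every library are given for the most abundant member and the member with the smallest p-value in each role, and for members without overlap; of each further list, the gene with the smallest p-value in each direction is named. GLRX, GSTZ1, PRDX2 and CAT were added after their values were seen, and the AP-1 motif after the other motifs. The same-numbered libraries did not deviate together in a consistent way. The correlations were 0.385 for r1, -0.34 for r2 and 0.044 for the unnumbered libraries. The main fit used no block, and a fit with a block is among the alternatives. Simulated data served to test the model fit. Python 3.11.15, numpy 2.4.6, pandas 2.3.3 and matplotlib 3.10.9 did the rest. Protein sequences were not analysed here, and the values of 1 cell marker are not reported here. The alternatives were another pseudocount (0.1), other filters (none, or a mean of at least 1 FPKM), median-ratio and quantile scaling, an untrended eBayes, a block for the replicate number, and each library left out in turn.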

Additional observations from a re-analysis of the deposited data

How the results depend on the processing

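Under each of the 13 alternatives limma called 0 of all genes and 0 of the members after adjustment, and the lowest adjusted p of a member was 0.667. In the fit with a replicate block 0 members were under 0.05 before adjustment, beside 4.34% of all genes, the median log2 fold change of the members was -0.033 and 2 members (5.26%, beside 7.07% of all genes) did not overlap. Of 233 log2 fold changes of named members under alternatives, 227 kept their direction and 6 reversed. The log2 fold change of GLRX5 was -0.013 with median-ratio scaling, and that of GSTP1 was 0.018 with quantile normalization. Over the fits that each left out a library it ranged from -0.0085 to 0.029 for GLRX5, from -0.013 to 0.080 for GPX4 and from -0.13 to 0.050 for TXN. The cause was not tested.

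The number of members without overlap was 1 with quantile normalization (2.63%, beside 6.98% of all genes), where PRDX6 overlapped. It ranged from 2 to 10 with a library left out, where fewer libraries are compared. It was 10 without sh-luc r1 (26.3%, beside 22% of all genes), 9 without sh-IUR1 r2 (23.7%, beside 25.2%), 5 without sh-IUR1 r1 (13.2%, beside 14.2%), 4 without the unnumbered sh-IUR1 library (10.5%, beside 11.9%), 3 without sh-luc r2 (7.89%, beside 14.2%) and 2 without the unnumbered sh-luc library (5.26%, beside 12.6%). The number at an unadjusted p-value under 0.05 ranged from 0 to 2, with the 2, GSTZ1 and GSTK1, without sh-IUR1 r2 (5.26%, beside 5.79% of all genes). The median log2 fold change of the members ranged from -0.053 (without sh-luc r1) to -0.0053 (without sh-IUR1 r2). The number of fragments is not known here, which limits what can be said of GPX1.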
